A study of Mus musculus with 18 samples.

Results

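The constitutive proteasome subunits and their assembly factors were followed across 6 groups of mouse bone-marrow-derived macrophages. The set was taken by symbol: every probe whose transcript accession mapped to a RefSeq mouse gene named Psma, Psmb, Psmc, Psmd, Psme, Psmf or Psmg followed by a digit, leaving out the immunoproteasome subunits Psmb8, Psmb9 and Psmb10. This gave 58 of 39429 probes and 47 genes. After the filter on dim probes 46 of these genes stood among the 20813 genes tested. Psmb11, the thymus beta subunit, was well above background in 1 of 18 samples and was not tested. Psma8, the alpha subunit of the testis proteasome, was tested but was well above background in only 9 of 18 samples, and the other 45 were well above background in all 18. The tested genes comprised 8 alpha-ring, 7 beta-ring, 6 ATPase-ring and 11 non-ATPase base and lid subunits, 4 activators, 1 inhibitor, 7 assembly chaperones and 2 genes that carry a matching symbol without being parts of the proteasome. Those 2 are Psmc3ip, a cofactor of meiotic and homologous recombination named for its binding to Psmc3, and Psme3ip1, named for its interaction with Psme3. Leaving out these 2 and Psma8 left 43 proteasome genes that were bright in every sample.

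The proteasome is the barrel-shaped protease that degrades proteins tagged with ubiquitin in the cytosol and nucleus. Its core stacks outer rings of alpha subunits, which gate entry, on inner rings of beta subunits, of which Psmb5, Psmb6 and Psmb7 carry the proteolytic sites, and dedicated chaperones (Psmg1 to Psmg4 for the core, Psmd5, Psmd9 and Psmd10 for the base) help to assemble it. A cap with an ATPase ring (Psmc genes) and non-ATPase subunits (Psmd genes) binds, unfolds and feeds in the substrate, while the Psme genes encode other activators that dock on the core. Subunit genes share control by the transcription factor that Nfe2l1 encodes, and macrophages can replace the catalytic subunits by Psmb8, Psmb9 and Psmb10 when they prepare peptides for antigen presentation.

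The groups were PHD3-/- and wild-type cells, each at an oxygen concentration labelled 1 with control feeding, at 20 and starved, and at 20 with control feeding, with 3 samples per group. The oxygen values carry no unit in the labels. PHD3, encoded by Egln3, is a prolyl hydroxylase that needs oxygen to mark hypoxia-inducible factor for degradation, and the series title names macrophage survival under stress as its subject. All marrow came from the femurs of male C57BL/6J mice aged 8 weeks and was differentiated with the growth factor M-CSF over 7 days. The design text names 3 mice each. It does not say whether samples with one number share a mouse, or whether cells or mice were starved. The p-values therefore set differences against the spread between these samples, which may in part be technical.

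Signals are log2 values relative to the 75th percentile of each array, so 0 is that percentile, and every difference is on this log2 scale. The 20 arrays on 5 slides held 43020 spots each, 56.1% to 65.4% of them well above background, with 75th percentiles of 933.8 to 1556 and no saturated spot. Over all genes tested, samples of one group correlated at r = 0.9873 or more across genes, which are not independent replicates, and the closest sample of any other group was in every case one of the same condition and the other genotype. All 6 macrophage markers tested (Adgre1, Csf1r, Fcgr1, Itgam, Lyz2 and Mertk) were well above background in all 18 samples. Egln3 averaged 2.85 in PHD3-/- and 2.90 in wild-type cells at oxygen 1, -2.41 and -2.30 when starved, and -3.95 and -3.46 in controls. Its signal was highest at oxygen 1 and also rose on starvation, by 1.54 (limma adjusted p = 1.47e-05) and 1.16 (adjusted p = 0.000183). It did not separate the genotypes (adjusted p = 1 in each condition), and where its probe lies relative to the deleted part is not given. PHD3-/- is used as labelled.

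Promoter windows of 250 bases before to 50 after the annotated start were available from RefSeq (GRCm38.p6) for 39 of the 47 genes. The 7-base ETS core CCGGAAG, read on both strands, occurred in 14 of these 39 windows (35.9%) and in 9.12% of 27025 windows of all genes. The median GC content was 57.3% in the set and 52.7% over all genes, and its part in this difference was not tested. The antioxidant response element core TGACNNNGC, the kind of element bound by the products of Nfe2l1 and Nfe2l2 with small Maf partners, occurred in 6 of 39 (15.4%, against 12.5% of all genes). The hypoxia response element core ACGTG occurred in 7 of 39 (17.9%, against 19.7%), CCAAT in 14 (35.9%, against 37.9%), the palindromic site of nuclear respiratory factor 1 in 2 (5.13%, against 0.977%) and TATAAA in 3 (7.69%, against 14.2%). A match is a string of letters and not a measured binding site. The windows printed here belong to some of the named genes for which a window was available. Psmb7, Psmc3 and Psmg2, which fell at oxygen 1 in both genotypes, were among the genes without a window. Capitals mark ETS cores in Psme3 and Psmc6, which rose at oxygen 1 in at least 1 genotype, in the chaperone genes Psmg1 and Psmg3 and in Psmc3ip, which fell, and the antioxidant response core in the catalytic subunits Psmb5 and Psmb6. In Psme3 the capitals CACGTG also mark the hypoxia response core, which this palindrome holds once on each strand. Not every match is in capitals. The Psmb5 window also holds 1 hypoxia response core, and the Psmc6 window 1 antioxidant response core, both left in lower case.
Psme3 (chr11:101315963-101316262, plus strand): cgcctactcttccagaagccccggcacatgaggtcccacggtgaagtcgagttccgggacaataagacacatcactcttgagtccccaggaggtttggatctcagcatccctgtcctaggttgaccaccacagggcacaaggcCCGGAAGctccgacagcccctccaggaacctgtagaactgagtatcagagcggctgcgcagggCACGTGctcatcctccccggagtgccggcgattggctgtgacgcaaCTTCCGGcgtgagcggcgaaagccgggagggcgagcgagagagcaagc
Psmc6 (chr14:45329574-45329873, plus strand): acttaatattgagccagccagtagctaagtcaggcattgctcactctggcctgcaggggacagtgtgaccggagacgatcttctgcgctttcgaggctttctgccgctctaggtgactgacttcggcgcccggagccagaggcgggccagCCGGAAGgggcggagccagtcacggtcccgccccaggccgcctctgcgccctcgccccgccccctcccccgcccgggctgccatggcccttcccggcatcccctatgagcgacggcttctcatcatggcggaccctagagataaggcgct
Psmg1 (chr16:95990911-95991210, minus strand): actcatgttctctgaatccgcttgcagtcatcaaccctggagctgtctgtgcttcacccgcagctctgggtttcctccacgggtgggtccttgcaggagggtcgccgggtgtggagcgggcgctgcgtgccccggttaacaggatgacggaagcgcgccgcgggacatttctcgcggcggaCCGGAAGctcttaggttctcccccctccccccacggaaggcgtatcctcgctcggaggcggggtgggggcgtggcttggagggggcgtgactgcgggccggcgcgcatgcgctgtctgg
Psmg3 (chr5:139826845-139827144, minus strand): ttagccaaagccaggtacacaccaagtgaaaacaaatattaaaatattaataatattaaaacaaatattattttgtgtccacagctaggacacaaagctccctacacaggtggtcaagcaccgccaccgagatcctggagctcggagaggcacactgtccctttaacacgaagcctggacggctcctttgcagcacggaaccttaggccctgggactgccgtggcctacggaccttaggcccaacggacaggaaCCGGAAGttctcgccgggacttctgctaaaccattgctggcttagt
Psmc3ip (chr11:101095386-101095685, minus strand): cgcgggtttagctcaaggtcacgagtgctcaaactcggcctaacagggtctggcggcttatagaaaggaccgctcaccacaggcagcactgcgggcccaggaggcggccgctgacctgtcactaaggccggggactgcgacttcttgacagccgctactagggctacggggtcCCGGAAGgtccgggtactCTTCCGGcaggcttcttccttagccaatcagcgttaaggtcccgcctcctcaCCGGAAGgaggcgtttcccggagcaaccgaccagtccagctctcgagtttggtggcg
Psmb5 (chr14:54617946-54618245, minus strand): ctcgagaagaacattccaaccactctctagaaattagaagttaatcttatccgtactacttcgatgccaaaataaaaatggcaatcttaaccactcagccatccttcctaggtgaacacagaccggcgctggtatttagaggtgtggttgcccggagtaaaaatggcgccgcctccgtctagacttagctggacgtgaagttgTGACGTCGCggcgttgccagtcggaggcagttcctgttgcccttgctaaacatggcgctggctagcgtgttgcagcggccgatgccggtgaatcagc
Psmb6 (chr11:70525107-70525406, plus strand): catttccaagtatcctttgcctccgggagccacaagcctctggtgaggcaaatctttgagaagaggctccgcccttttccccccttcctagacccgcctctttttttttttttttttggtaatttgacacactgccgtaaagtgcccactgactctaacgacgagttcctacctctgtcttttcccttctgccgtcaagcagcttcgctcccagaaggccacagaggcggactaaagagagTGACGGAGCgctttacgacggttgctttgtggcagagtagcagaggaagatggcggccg

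At oxygen 1 most proteasome genes were slightly lower than in controls, and a minority passed the limma threshold (adjusted p under 0.05 over 20813 genes). In PHD3-/- cells 9 members fell and 2 rose, which is 23.9% of the 46 against 39.7% of all genes tested (18.3% lower and 21.4% higher). In wild-type cells 10 fell and 2 rose, 26.1% against 38.6% (18.1% lower and 20.5% higher). The 3 oxygen 1 samples did not overlap the 3 controls for 15 members in PHD3-/- and 21 in wild-type cells, where 49% and 49.9% of all genes were apart. The median difference of the members was -0.16 in PHD3-/- and -0.20 in wild-type cells, beside 0.03 over all genes in both, and 35 of 46 members lay below 0 in each genotype. Over the 43 bright proteasome parts the medians were -0.16 and -0.19, with 8 falls and 2 rises in PHD3-/- and 9 and 2 in wild-type cells. Expressed per sample, the median deviation of the 46 members from their own means lay between -0.138 and -0.058 in the 6 oxygen 1 samples, below all other samples, of which the lowest stood at -0.001. How the called share of the members compares with that of all genes changed with the scaling. It was 39.1% against 41.2% in PHD3-/- and 37% against 40% in wild-type cells under quantile normalization, 39.1% against 40.1% and 39.1% against 38.3% with the authors' values, 37% against 39.7% and 47.8% against 39.7% under median scaling, and 10.9% against 20.3% and 10.9% against 18.9% under normexp, a model-based background correction. The difference between these shares was not tested. In 40 of 46 members the sign of the difference was the same in both genotypes, and over all genes this held for 86.5%. Psme3 rose and 6 members (Psma5, Psmb7, Psmc3, Psmg1, Psmg2 and Psmc3ip) fell in both, and these 7 are 63.6% of the PHD3-/- calls and 58.3% of the wild-type calls, where over all genes the shared calls were 82.8% and 85.2%.

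**Figure D1:**
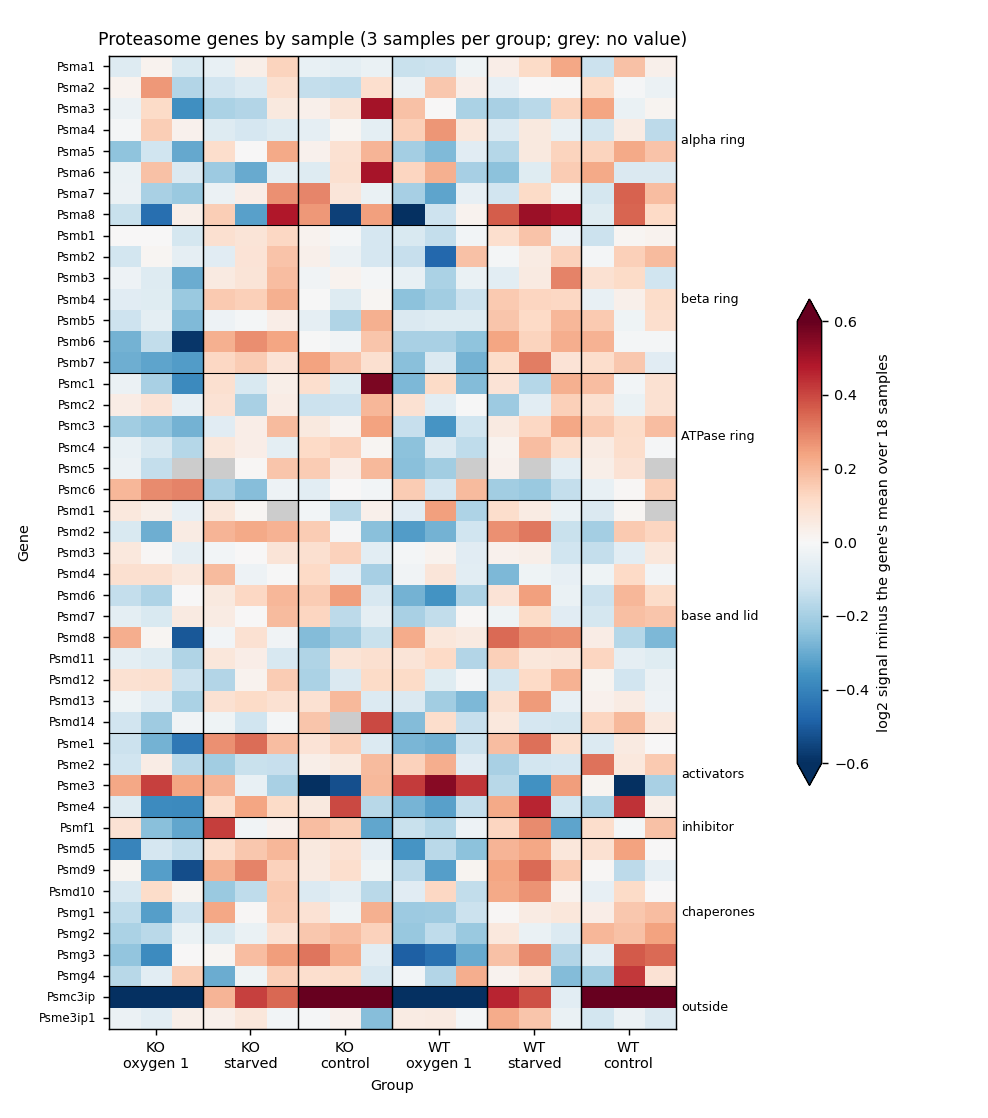
Each cell is the log2 signal of 1 gene in 1 sample minus that gene's mean over 18 samples, with genes in rows by role and the 3 samples of each group side by side (KO, PHD3-/-; WT, wild type). Values past 0.6 in either direction are drawn in the end colour. The oxygen 1 columns are bluer than the others in most rows, and red for Psme3.

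In the core, all 7 beta-ring genes had a difference below 0 at oxygen 1 in both genotypes, with a median of -0.13 in PHD3-/- and -0.23 in wild-type cells. Of these 7, 2 fell in each genotype: Psmb6 and Psmb7 in PHD3-/- cells and Psmb4 and Psmb7 in wild-type cells. With the background correction by normexp 6 of 7 lay below 0 in wild type, and with the authors' values 6 of 7 in PHD3-/-. Psmb7, which carries the trypsin-like site, read 2.51, 2.49 and 2.47 at oxygen 1 against 3.04, 2.97 and 2.90 in PHD3-/- controls, and 2.55, 2.71 and 2.52 against 2.91, 2.96 and 2.73 in wild type. In both genotypes every oxygen 1 sample lay below every control, and the difference was -0.48 (95% interval -0.68 to -0.29, adjusted p = 0.000604) in PHD3-/- and -0.27 (95% interval -0.47 to -0.08, adjusted p = 0.0267) in wild-type cells. Psmb6, which carries the caspase-like site, read 5.60, 5.74 and 5.31 at oxygen 1 against 5.89, 5.87 and 6.05 in PHD3-/- controls, and 5.70, 5.70 and 5.65 against 6.10, 5.88 and 5.88 in wild type. No samples overlapped here either, with differences of -0.39 (95% interval -0.61 to -0.16, adjusted p = 0.00928) and -0.27 (95% interval -0.50 to -0.04, adjusted p = 0.0576), so that the first passed the threshold and the second did not. Psmb5, which carries the chymotrypsin-like site, read 6.38, 6.45 and 6.24 at oxygen 1 against 6.46, 6.33 and 6.72 in PHD3-/- controls, and 6.42, 6.43 and 6.43 against 6.66, 6.48 and 6.61 in wild type. The PHD3-/- samples overlapped and the wild-type samples did not, and neither difference passed, at -0.14 (adjusted p = 0.274) and -0.16 (adjusted p = 0.222). The other beta subunits, Psmb1, Psmb2, Psmb3 and Psmb4, differed by -0.13 to 0.00 in PHD3-/- and by -0.25 to -0.05 in wild-type cells.

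The alpha ring was mixed, with 1 fall among 8 genes in PHD3-/- cells and 1 fall and 1 rise in wild-type cells (medians -0.16 and -0.10). Psma5 read 3.42, 3.54 and 3.35 at oxygen 1 against 3.69, 3.75 and 3.86 in PHD3-/- controls, and 3.46, 3.40 and 3.59 against 3.79, 3.89 and 3.83 in wild type. All oxygen 1 samples were below all controls of their genotype, and Psma5 fell in both, with differences of -0.33 (adjusted p = 0.0161) and -0.36 (adjusted p = 0.0109). Psma4 read 3.07, 3.24 and 3.11 at oxygen 1 against 3.03, 3.10 and 3.03 in PHD3-/- controls, and 3.23, 3.35 and 3.16 against 2.98, 3.14 and 2.93 in wild type. It rose in wild-type cells by 0.23 (95% interval 0.05 to 0.41, adjusted p = 0.0411), without overlap, while the PHD3-/- samples overlapped (0.09, adjusted p = 0.454). Another probe of Psma4 gave -0.16 in wild type, and the rise passed the threshold in 5 of 18 alternative settings.

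In the cap, 1 of 6 ATPase-ring genes fell in each genotype (medians -0.21 in PHD3-/- and -0.22 in wild-type cells), and 1 rose in PHD3-/- cells. Psmc3 read 5.46, 5.43 and 5.38 at oxygen 1 against 5.73, 5.69 and 5.91 in PHD3-/- controls, and 5.53, 5.31 and 5.54 against 5.82, 5.78 and 5.85 in wild type. It was lower in every oxygen 1 sample and fell, with differences of -0.35 (adjusted p = 0.00872) and -0.35 (adjusted p = 0.00868). Psmc6, another ATPase of the ring, read 2.89, 2.97 and 2.99 at oxygen 1 against 2.63, 2.69 and 2.67 in PHD3-/- controls, and 2.84, 2.59 and 2.88 against 2.64, 2.69 and 2.83 in wild type. It rose in PHD3-/- cells without overlap, by 0.29 (95% interval 0.09 to 0.49, adjusted p = 0.0245), and the wild-type samples overlapped (0.05, adjusted p = 0.738). The 11 non-ATPase base and lid genes had medians near 0, -0.05 in PHD3-/- and -0.03 in wild-type cells and 1 fall in each. Psmd14, the metalloprotease that removes ubiquitin chains from the substrate, read 1.63, 1.53 and 1.72 at oxygen 1 against 1.91 and 2.14 (1 value missing) in PHD3-/- controls, and 1.48, 1.84 and 1.60 against 1.87, 1.93 and 1.80 in wild type. It fell in PHD3-/- cells (-0.40, adjusted p = 0.0163), a fit that rests on 2 control values, and the wild-type samples overlapped (-0.23, adjusted p = 0.111). In wild-type cells the lid gene Psmd6 fell, with a difference of -0.34 (adjusted p = 0.0326).

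Among the 4 activators 1 rose in both genotypes and 1 fell in PHD3-/- cells. Psme3 encodes a nuclear activator that opens the core without a ubiquitin tag. It read 2.21, 2.38 and 2.21 at oxygen 1 against 1.28, 1.44 and 2.17 in PHD3-/- controls, and 2.39, 2.52 and 2.40 against 1.99, 1.23 and 1.78 in wild type. The oxygen 1 samples lay close together and above all controls, while the controls spread widely: replicate 3 of the PHD3-/- controls almost reached the oxygen 1 level, and replicate 2 of the wild-type controls was the lowest. Psme3 rose by 0.64 (95% interval 0.14 to 1.13, adjusted p = 0.0393) in PHD3-/- cells, which is 1.55-fold, and by 0.77 (95% interval 0.28 to 1.27, adjusted p = 0.0154), 1.71-fold, in wild-type cells, the largest rise among the members in each. Psme1, one of the interferon-inducible pair that forms the cytosolic activator with Psme2, read 3.53, 3.37 and 3.23 at oxygen 1 against 3.74, 3.80 and 3.58 in PHD3-/- controls, and 3.38, 3.37 and 3.53 against 3.58, 3.71 and 3.66 in wild type. It was lower in all oxygen 1 samples of both genotypes and fell past the threshold in PHD3-/- cells (-0.33, adjusted p = 0.0169), with -0.22 (adjusted p = 0.0933) in wild type. Psme4, the large nuclear activator, differed by -0.38 (adjusted p = 0.113) and -0.34 (adjusted p = 0.149), and the core inhibitor Psmf1 by -0.17 (adjusted p = 0.492) and -0.20 (adjusted p = 0.391).

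Assembly chaperones had medians of -0.29 in PHD3-/- and -0.32 in wild-type cells, with 2 of 7 genes falling in PHD3-/- and 4 of 7 (Psmg1, Psmg2, Psmg3 and Psmd5) in wild-type cells, and both medians were below 0 under normexp, quantile and median scaling and with the authors' values. Psmg2, the partner of Psmg1 in the heterodimer that starts the alpha ring, read 1.01, 1.04 and 1.16 at oxygen 1 against 1.36, 1.38 and 1.34 in PHD3-/- controls, and 0.97, 1.05 and 0.98 against 1.40, 1.38 and 1.44 in wild type. The groups stood well apart, with differences of -0.29 (95% interval -0.46 to -0.13, adjusted p = 0.00757) and -0.41 (95% interval -0.57 to -0.24, adjusted p = 0.000746). Psmg3, which pairs with Psmg4 as the other core chaperone, read 0.92, 0.78 and 1.17 at oxygen 1 against 1.48, 1.38 and 1.10 in PHD3-/- controls, and 0.67, 0.71 and 0.86 against 1.10, 1.53 and 1.50 in wild type. Every wild-type oxygen 1 sample was below every control and Psmg3 fell, with a difference of -0.63 (95% interval -0.96 to -0.30, adjusted p = 0.00475), 1.55-fold, whereas in PHD3-/- cells the highest oxygen 1 sample passed the lowest control (-0.36, adjusted p = 0.0744). Psmd5, a chaperone of the base, read 0.61, 0.90 and 0.86 at oxygen 1 against 1.06, 1.09 and 0.96 in PHD3-/- controls, and 0.65, 0.84 and 0.76 against 1.10, 1.24 and 1.01 in wild type, and fell in wild-type cells (-0.36, adjusted p = 0.00859), with -0.25 (adjusted p = 0.0592) in PHD3-/-. Psmg1 fell in both genotypes, with differences of -0.29 (adjusted p = 0.019) and -0.32 (adjusted p = 0.0133).

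The largest difference under the symbol rule lay outside the proteasome. Psmc3ip read -3.67, -3.76 and -3.32 at oxygen 1 against -1.30, -1.17 and -1.52 in PHD3-/- controls, and -4.00, -3.64 and -3.76 against -1.68, -1.38 and -1.38 in wild type. It fell 4.77-fold in PHD3-/- and 5-fold in wild-type cells, with log2 differences of -2.25 (95% interval -2.60 to -1.91, adjusted p = 5.73e-08) and -2.32 (95% interval -2.67 to -1.98, adjusted p = 4.75e-08). Psme3ip1 differed by 0.06 (adjusted p = 0.663) and 0.11 (adjusted p = 0.385).

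**Figure D2:**
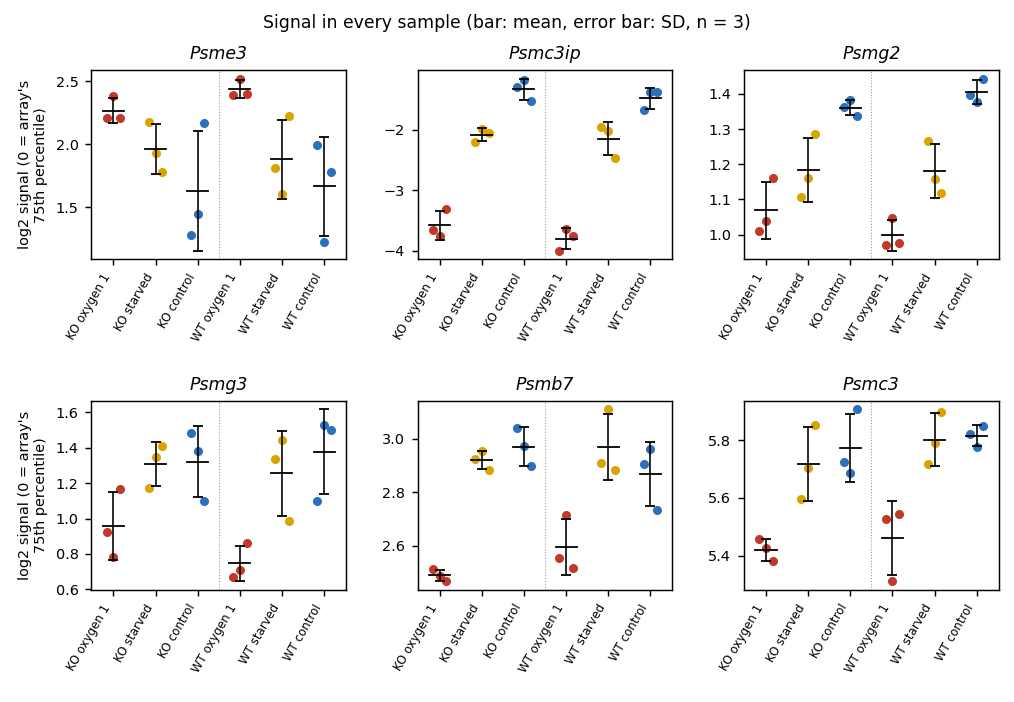
Points are the log2 signals (0 is the array's 75th percentile) of 6 named genes in each sample of the 6 groups, with the mean and SD of 3 samples, on axes that do not start at 0. Psme3 is high and tight at oxygen 1 with scattered controls, and the other 5 are low at oxygen 1. Starved samples lie between oxygen 1 and control for Psmc3ip in both genotypes and for Psmg2 in wild type.

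**Figure D3:**
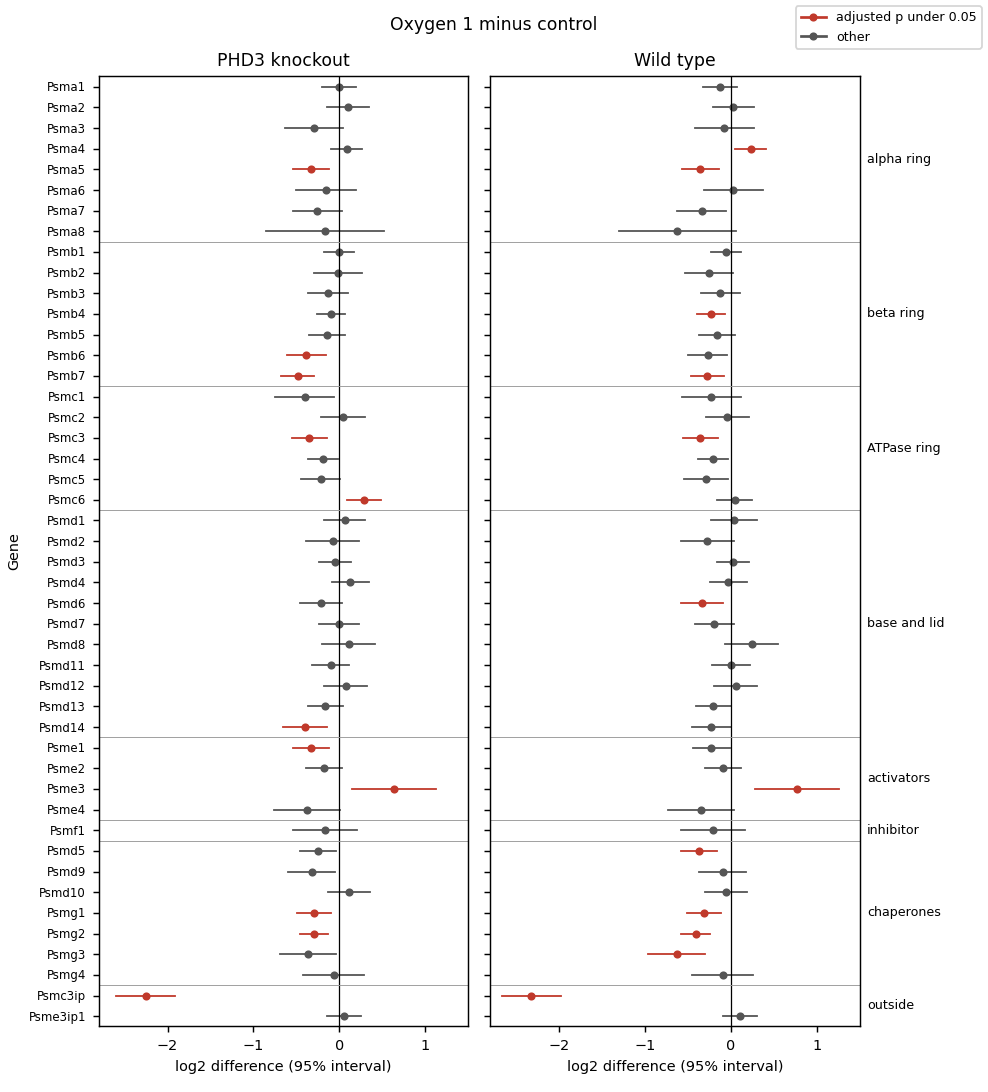
Points and bars are the log2 differences of oxygen 1 minus control with 95% intervals for the 46 genes by role, in PHD3-/- (left) and wild-type cells (right), red where the limma adjusted p is under 0.05. In each panel 35 of 46 points lie left of 0, with Psme3 to the right and Psmc3ip far to the left in both panels.

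Leaving out 1 sample at a time gave between 7 and 12 calls in PHD3-/- cells, the lowest number without replicate 1 of the controls, and between 8 and 13 in wild-type cells. Without replicate 1 or 3 of the PHD3-/- controls Psmd14 had too few control values and was not tested, so those counts could not include it. The shares of all genes in these fits are not given. In PHD3-/- cells Psme3 missed the threshold without any 1 of the 3 oxygen 1 samples (0.67, 0.58 and 0.67, adjusted p 0.0656, 0.113 and 0.0677) and without replicate 1 or 2 of the controls (0.46 and 0.54, adjusted p 0.171 and 0.13). There it passed in 7 of 18 alternatives. It also missed with the authors' values (0.54, adjusted p = 0.0583), with no filter on dim probes (adjusted p = 0.0687) and with the first array only (adjusted p = 0.0768). In wild-type cells Psme3 passed in 16 of 18. It missed without replicate 2 of the controls (0.55, adjusted p = 0.0845) and under median scaling (0.62, adjusted p = 0.0537). Psmc6 in PHD3-/- missed without replicate 2 or 3 at oxygen 1 or replicate 1 of the controls (0.27 in each, adjusted p 0.0687 to 0.0752), Psma5 without replicate 3 at oxygen 1 or of the controls (-0.29 and -0.28, adjusted p 0.0611 and 0.0579), Psme1 without replicate 3 at oxygen 1 or replicate 1 or 2 of the controls (-0.31 to -0.25, adjusted p 0.0538 to 0.0798), Psmd14 without replicate 2 at oxygen 1 (-0.35, adjusted p = 0.0588) and Psmg1 without replicate 2 at oxygen 1 or replicate 3 of the controls (-0.23 in each, adjusted p 0.093 and 0.0754). In wild-type cells Psma4, Psmb4, Psmb7 and Psmd6 each missed in 4 of the 6 such fits. Psma4 missed without replicate 1 or 2 at oxygen 1 or replicate 1 or 3 of the controls (0.18 to 0.24, adjusted p 0.0777 to 0.153). Psmb4 and Psmd6 missed without replicate 1 or 2 at oxygen 1 or replicate 2 or 3 of the controls (-0.23 to -0.19, adjusted p 0.0623 to 0.117, and -0.33 to -0.27, adjusted p 0.0742 to 0.133). Psmb7 missed without replicate 1 or 3 at oxygen 1 or replicate 1 or 2 of the controls (-0.25 to -0.23, adjusted p 0.0741 to 0.109). Psmg1 missed there without replicate 3 of the controls (-0.29, adjusted p = 0.0538). Other settings ended calls as well. With normexp PHD3-/- cells lost Psmg2 (-0.27, adjusted p = 0.16), Psmb6 (-0.43, adjusted p = 0.0721), Psmc6 (0.23, adjusted p = 0.283), Psmd14, Psme3 and Psmg1, and wild-type cells lost Psmb7 (-0.21, adjusted p = 0.296), Psmc3 (-0.38, adjusted p = 0.0766), Psma4, Psmb4, Psmd5, Psmd6 and Psmg1. With only the groups compared in the fit, Psmb7 and Psmc3ip alone stayed past the threshold in PHD3-/- cells, with Psmg2 at an adjusted p of 0.0775 and Psmb6 at 0.0891, and wild-type cells lost Psma4, Psmb4, Psmb7, Psmd5, Psmd6 and Psmg1. Psmc3ip in both genotypes, Psmb7 in PHD3-/- and Psmg2 and Psmg3 in wild-type cells passed in all 18 alternatives. Scaling each array by its median, which lowered the median of all genes to -0.08 in PHD3-/- and -0.12 in wild-type cells, gave 17 and 22 falls and no rise, and the member medians under it were -0.27 and -0.35.

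Arrays of both conditions lay on 3 slides for PHD3-/- and on 1 for wild type. Within slides the member medians were -0.21, -0.07 and -0.15 in PHD3-/- cells and -0.14 in wild type, beside -0.06, 0.08, 0.01 and 0.03 over all genes. Psme3 differed by 0.74, 0.62 and 1.27 within the PHD3-/- slides and by 0.53 within the wild-type slide, and Psmb7 by -0.54, -0.51, -0.52 and -0.19. The PHD3-/- slide values are not independent. The last of these slides held second arrays of oxygen 1 replicate 1 and control replicate 1, whose first arrays lay on the other slides. Oxygen 1 replicate 2 and control replicate 3 entered none of the PHD3-/- slide values. With the slide as a block and only the first array of each sample, 7 of the 12 wild-type calls missed the threshold: Psma5 (-0.23, adjusted p = 0.175), Psmb4 (-0.20, adjusted p = 0.164), Psmb7 (-0.23, adjusted p = 0.0865), Psmd6 (-0.33, adjusted p = 0.0695), Psmc3 (-0.30, adjusted p = 0.0578), Psmg1 (-0.29, adjusted p = 0.0571) and Psmd5 (-0.30, adjusted p = 0.0531). In PHD3-/- cells the same fit lost Psmd14 (-0.30, adjusted p = 0.126), Psmg1 (-0.22, adjusted p = 0.0862) and Psmg2 (-0.25, adjusted p = 0.0535). Markers of other cells moved too: of 7 neutrophil markers 4 fell in PHD3-/- and 5 in wild-type cells, and of 4 lymphocyte markers tested 3 fell in each. The log2 of the summed signal of the neutrophil list was 2.37 to 3.26 at oxygen 1 against 3.27 to 3.98 in PHD3-/- controls, and 2.61 to 3.27 against 3.58 to 4.23 in wild type. That of the lymphocyte list was 2.02 to 2.32 against 2.94 to 3.17, and 1.93 to 2.32 against 2.80 to 3.02. The lymphocyte markers Cd3g and Cd79a were not well above background in any sample, and the other lymphocyte and all neutrophil markers were in at least 1. Of the 6 macrophage markers Csf1r rose and Lyz2 and Mertk fell in both genotypes. Of 6 stromal and endothelial markers 1 rose and 1 fell in PHD3-/- cells and 2 rose in wild type, of 3 dendritic markers 1 rose in wild type, and neither of the 2 erythroid markers tested passed. Their part in the proteasome differences was not tested, and in bulk RNA fewer cells of a type cannot be told apart from less RNA per cell.

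Another probe was tested for 11 members and differed from the brighter one in several of them at oxygen 1. The signs were opposite in 5 of 11 genes in PHD3-/- and in 3 of 11 in wild-type cells, and the median difference of the dimmer probes was -0.28 in PHD3-/- and -0.23 in wild-type cells, beside -0.17 and -0.09 for the brighter ones. Fitted over 25372 probes, 5 dimmer and 2 brighter probes passed in PHD3-/- cells and 4 dimmer and 3 brighter in wild type, all lower except the brighter Psma4 probe in wild type. The share of all probes past the threshold in that fit is not given. In the fit over genes, 39.7% of all genes passed in PHD3-/- and 38.6% in wild-type cells, so the probe counts are no result about these probes as a set. Psmc3 and Psmg1 fell on both probes in both genotypes. The dimmer Psmb5 probe fell, with differences of -0.41 (adjusted p = 0.0411) in PHD3-/- and -0.55 (adjusted p = 0.00952) in wild-type cells, where the brighter probe differed by -0.14 and -0.16. For Psme2 the dimmer probe fell, with differences of -0.44 (adjusted p = 0.000683) and -0.39 (adjusted p = 0.00193), where the brighter differed by -0.17 and -0.09. Probe sequences were not used here, and signal from processed pseudogenes (RefSeq lists such copies of Psma5, Psmb5, Psmb6 and Psmb7) was not tested.

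**Figure D4:**
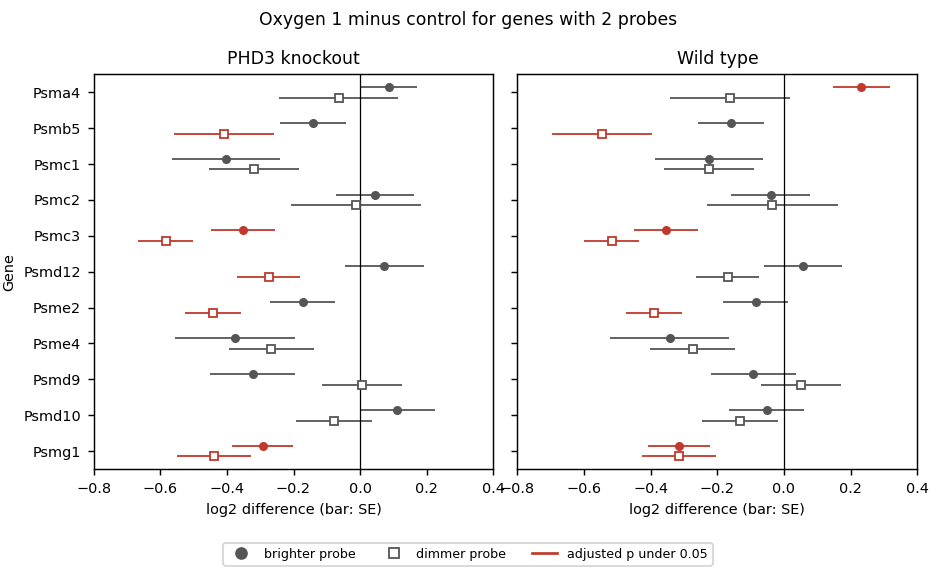
For the 11 genes with 2 probes, the log2 difference of oxygen 1 minus control is shown with its SE for the brighter (filled circle) and the dimmer probe (open square), in PHD3-/- (left) and wild-type cells (right), red where the limma adjusted p is under 0.05. The squares of Psmb5, Psmc3 and Psme2 lie left of the circles in both panels.

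Starvation at oxygen 20 left most of the set close to its controls. No member rose in either genotype, and 1 of 46 (2.17%, against 13.5% of all genes tested, 7.13% higher and 6.38% lower) fell in PHD3-/- and 2 of 46 (4.35%, against 12.5%, 6.49% higher and 6.02% lower) in wild-type cells. The median difference was 0.03 in PHD3-/- and 0.04 in wild-type cells, and it lay below 0 under normexp (-0.01 and -0.06) and under median scaling (-0.03 and -0.04), so it has no settled sign. The median over all genes moved as well. It was 0.01 in PHD3-/- and 0.02 in wild-type cells, 0.02 and 0.18 under normexp, and -0.04 and -0.06 under median scaling. Starved and control samples did not overlap for 14 members in PHD3-/- (30.7% of all genes) and 12 in wild-type cells (29.7%). The unadjusted p was under 0.05 for 7 of 46 members in PHD3-/- and 6 in wild type, where it was so for 5252 and 4957 of all 20813 genes. Within slides the member medians were -0.01, -0.02 and 0.11 in PHD3-/- and 0.01, 0.03 and 0.02 in wild-type cells.

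The fall shared by both genotypes was that of Psmc3ip, which read -2.20, -1.99 and -2.06 in starved against -1.30, -1.17 and -1.52 in control PHD3-/- cells, and -1.95, -2.02 and -2.46 against -1.68, -1.38 and -1.38 in wild type. All starved samples lay below their controls and above the oxygen 1 samples, with differences of -0.75 (95% interval -1.10 to -0.41, adjusted p = 0.00511) and -0.67 (95% interval -1.01 to -0.33, adjusted p = 0.012). The wild-type call missed the threshold without replicate 2 or 3 of the controls or replicate 3 of the starved samples (-0.62, -0.62 and -0.51, adjusted p 0.0526, 0.0551 and 0.0511). It also missed under normexp (-0.34, adjusted p = 0.254) and with only the groups compared in the fit (adjusted p = 0.0672). Psme2 read 6.06, 6.13 and 6.13 in starved against 6.31, 6.33 and 6.46 in control PHD3-/- cells, and 6.07, 6.16 and 6.17 against 6.59, 6.33 and 6.43 in wild type. No starved sample reached a control, and Psme2 fell in wild type, with a difference of -0.32 (95% interval -0.53 to -0.11, adjusted p = 0.0452), with -0.26 (adjusted p = 0.108) in PHD3-/-. The dimmer Psme2 probe, in the fit over 25372 probes, was lower in both genotypes, with -0.30 (adjusted p = 0.0272) in PHD3-/- and -0.39 (adjusted p = 0.00637) in wild-type cells. The call of the brighter probe in wild type missed under normexp (-0.48, adjusted p = 0.0712), with no filter on dim probes (adjusted p = 0.107), with the replicate number as a block (adjusted p = 0.0603) and with only the groups compared in the fit (adjusted p = 0.133). It also missed in 5 of the 6 fits without 1 sample, all but the one without replicate 2 of the controls (-0.34 to -0.25, adjusted p 0.0675 to 0.177). Of the catalytic subunits, Psmb5 read 6.48, 6.50 and 6.55 in starved PHD3-/- and 6.67, 6.63 and 6.71 in starved wild-type cells. Psmb6 read 6.10, 6.17 and 6.13 in starved PHD3-/- and 6.13, 6.02 and 6.11 in starved wild-type cells. Psmb7 read 2.92, 2.96 and 2.89 in starved PHD3-/- and 2.91, 3.11 and 2.88 in starved wild-type cells. The differences of all 3 from the controls given above were between -0.05 and 0.20 and none passed. The neutrophil list again moved, with 4 of 7 markers falling in PHD3-/- and 5 of 7 in wild-type cells and a log2 summed signal of 2.50 to 3.18 in starved PHD3-/- and 2.84 to 3.22 in starved wild-type cells. Of the other lists, 2 of 4 lymphocyte and 2 of 6 stromal and endothelial markers fell in each genotype. Their part in these values was not tested.

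**Figure D5:**
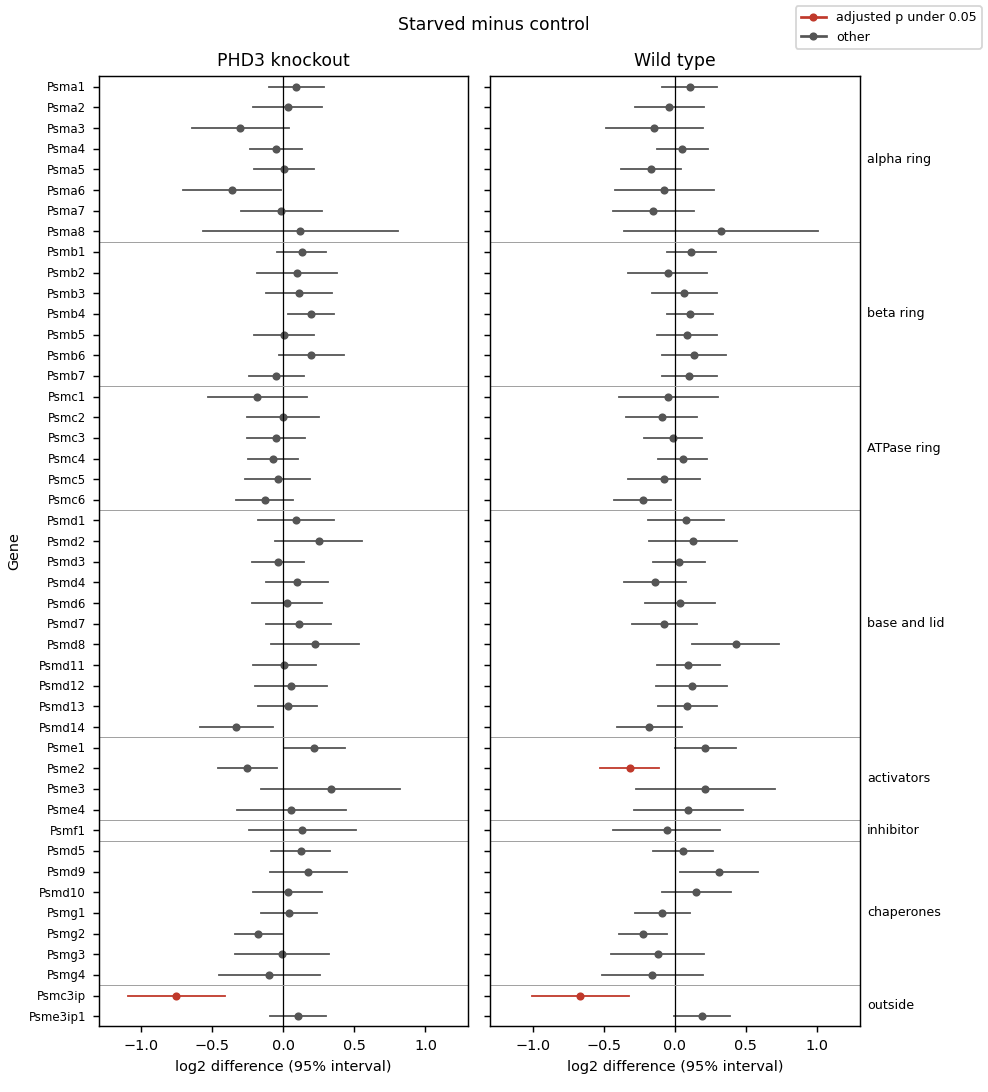
Points and bars are the log2 differences of starved minus control with 95% intervals for the 46 genes by role, in PHD3-/- (left) and wild-type cells (right), red where the limma adjusted p is under 0.05. The points scatter around 0, and Psmc3ip in both panels and Psme2 in wild type are the red ones.

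Set against starved cells, oxygen 1 cells again had lower levels of most members. In PHD3-/- cells 10 members were lower and 1 higher (23.9% of 46, against 37.1% of all genes tested, 17.9% lower and 19.2% higher), and in wild-type cells 14 lower and 1 higher (32.6%, against 38.1%, 18.3% lower and 19.8% higher), with medians of -0.13 and -0.18 beside 0.01 and 0.00 over all genes. The groups did not overlap for 22 members in PHD3-/- (50.1% of all genes) and 24 in wild-type cells (46.7%). These comparisons share their oxygen 1 samples with those above. Psmb6 differed by -0.58 (95% interval -0.81 to -0.36, adjusted p = 0.000561) in PHD3-/- and -0.41 (95% interval -0.63 to -0.18, adjusted p = 0.0075) in wild-type cells, and Psmb7 by -0.43 (adjusted p = 0.00161) and -0.37 (adjusted p = 0.00455). Under normexp Psmb6 missed in wild type (-0.27, adjusted p = 0.248), and Psmb7 missed in both (-0.35, adjusted p = 0.0659 and -0.29, adjusted p = 0.117). Psme1 read 3.93, 3.99 and 3.84 in starved PHD3-/- and 3.84, 3.99 and 3.76 in starved wild-type cells, and oxygen 1 cells differed by -0.55 (adjusted p = 0.000607) and -0.44 (adjusted p = 0.00318). Psmc6 was the member higher at oxygen 1 in both genotypes, reading 2.50, 2.43 and 2.66 in starved PHD3-/- and 2.48, 2.47 and 2.55 in starved wild-type cells, with differences of 0.42 (adjusted p = 0.00265) and 0.27 (adjusted p = 0.0338). Psmc3ip was lower at oxygen 1, with differences of -1.50 (adjusted p = 4.42e-06) and -1.66 (adjusted p = 1.68e-06). Markers of other cells moved in this comparison as well: of 7 neutrophil markers 4 were higher and 1 lower at oxygen 1 in each genotype (medians 1.54 in PHD3-/- and 1.52 in wild type), with the log2 summed signals of the list given above. Of 6 stromal and endothelial markers 4 were higher in each, with a log2 summed signal of 0.65 to 1.43 at oxygen 1 against -0.70 to -0.42 in starved PHD3-/- cells, and 1.01 to 1.49 against -0.67 to -0.22 in wild type. Of 4 lymphocyte markers 1 was lower in each, of 6 macrophage markers 1 was higher and 2 were lower in each, of 3 dendritic markers 1 was lower in PHD3-/- and 1 higher in wild type, and neither of the 2 erythroid markers passed. Their part in the proteasome differences was not tested.

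In wild-type cells the list also held Psmg3 and Psma8. Psmg3 read 1.34, 1.44 and 0.99 in starved wild-type cells, and the difference was -0.51 (adjusted p = 0.0176). It missed the threshold without replicate 1 at oxygen 1 or replicate 1 or 2 of the starved samples (-0.47, -0.47 and -0.41, adjusted p 0.0589 to 0.0826). Psma8 read -7.85, -6.62 and -6.47 at oxygen 1, where no sample was well above background, against -6.13, -5.98 and -6.00 in starved wild-type cells, where all 3 were. It was at least 1.1-fold lower at oxygen 1, with the oxygen 1 level set to the lowest signal that still counted as well above background on each array (adjusted p = 0.0307 for the measured means of -6.98 and -6.04), and the call missed without replicate 1 at oxygen 1 (-0.51, adjusted p = 0.154) or without any 1 of the starved samples (-0.99 to -0.92, adjusted p 0.0583 to 0.0783). The wild-type count fell to 8 without replicate 1 at oxygen 1 and to 9 and 7 without replicates 1 and 2 of the starved samples. With the slide as a block and only the first array of each sample Psma8, Psmc3, Psmc4, Psmc6, Psmd2 and Psmg3 missed in wild type (adjusted p 0.0529 to 0.115). Psmc6 in wild type missed without replicate 1 or 3 at oxygen 1 or replicate 1 or 2 of the starved samples (0.22 to 0.26, adjusted p 0.089 to 0.121).

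No member passed the threshold between PHD3-/- and wild-type cells in any condition, and none in the average over conditions, where 1 gene was higher and 4 were lower over all genes tested (0.024%, of which 0.0048% higher and 0.0192% lower). In single conditions the share was 0% of all genes as well. The macrophage marker Lyz2 was 1 of the 4 lower genes, with an average difference of -1.03 (adjusted p = 0.000449), and its part in the values of the set was not tested. The unadjusted p was under 0.05 for 0 members at oxygen 1, 1 when starved, 0 in controls and 1 in the average. Of all 20813 genes this held for 353, 394, 290 and 508. The genotypes did not overlap for 4 members at oxygen 1 (4.4% of all genes), 3 when starved (5.21%) and 1 in controls (5.02%). The differences lay between -0.21 and 0.30 at oxygen 1, between -0.36 and 0.17 when starved and between -0.15 and 0.15 in controls, with medians of -0.01, 0.00 and -0.04. The typical 95% interval of a member, which is not adjusted for the number of genes, reached 0.23 to either side of its estimate. Differences inside that width, and also larger ones, can miss the adjusted threshold with 3 samples per group. Psmd10, at -0.25 when starved, did not pass. At oxygen 1 the nearest to the threshold were Psmc6, at 0.18 (95% interval -0.02 to 0.38, adjusted p = 1), and Psme2, which read 6.15, 6.31 and 6.11 in PHD3-/- against 6.41, 6.49 and 6.20 in wild-type cells, at -0.18 (95% interval -0.39 to 0.03, adjusted p = 1). The lowest PHD3-/- sample of Psmc6 stood just above the highest wild-type sample, and those of Psme2 overlapped.

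When starved, Psmd10, the oncoprotein gankyrin and a chaperone of the base, read 0.80, 0.87 and 1.18 in PHD3-/- against 1.25, 1.29 and 1.04 in wild-type cells, a difference of -0.25 (95% interval -0.49 to -0.00, adjusted p = 1). Psmd8, a lid subunit, read 3.61, 3.72 and 3.61 against 3.97, 3.90 and 3.89, a difference of -0.28 (95% interval -0.59 to 0.03, adjusted p = 1), and its samples did not overlap. Averaged over conditions Psmd8 differed by -0.19 (95% interval -0.36 to -0.01, adjusted p = 1) and Psmb5 by -0.10 (95% interval -0.23 to 0.02, adjusted p = 1). The dimmer Psmb5 probe differed by 0.04 in that average, and the dimmer Psmd10 probe by -0.04 when starved. Psmd8 read 3.85, 3.64 and 3.12 in PHD3-/- against 3.85, 3.69 and 3.68 in wild-type cells at oxygen 1, and 3.37, 3.41 and 3.49 against 3.67, 3.46 and 3.36 in controls. In controls the nearest were Psmd14, at 0.15 (adjusted p = 1), and the lid subunit Psmd3, which read 4.93, 4.97 and 4.77 in PHD3-/- against 4.69, 4.77 and 4.90 in wild-type cells, at 0.10 (adjusted p = 1).

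The responses were also compared between genotypes directly. The change at oxygen 1 did not differ past the threshold for any member, with differences of change (PHD3-/- minus wild type) between -0.23 and 0.45, a median of 0.03 and no member with an unadjusted p under 0.05. The nearest were Psmc6, at 0.24 (95% interval -0.04 to 0.52, adjusted p = 1), and Psmb7, at -0.21 (95% interval -0.48 to 0.07, adjusted p = 1), so the calls of Psmc6 in PHD3-/- alone and of Psma4, Psmg3 and Psmd5 in wild type alone are not shown to differ between genotypes. The starvation change differed by -0.29 to 0.24, again with no member under an unadjusted p of 0.05. Of all 20813 genes 230 were under it for the oxygen 1 change and 216 for the starvation change. The nearest were Psmd4 and Psma6. The ubiquitin receptor Psmd4 read 5.44, 5.22 and 5.25 in starved and 5.37, 5.20 and 5.05 in control PHD3-/- cells, and 4.98, 5.22 and 5.20 in starved and 5.22, 5.37 and 5.23 in control wild-type cells, with a difference of change of 0.24 (adjusted p = 1). The alpha subunit Psma6 read 4.06, 3.98 and 4.22 in starved and 4.20, 4.37 and 4.77 in control PHD3-/- cells, and 4.03, 4.21 and 4.43 in starved and 4.51, 4.19 and 4.19 in control wild-type cells, with a difference of change of -0.29 (adjusted p = 1). Of all genes tested 0% passed in either comparison.

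Partners of the proteasome outside the symbol rule were followed from a list of 17 genes, of which 15 were tested. At oxygen 1 4 of them fell in PHD3-/- cells, and 3 fell and 1 rose in wild type. The 3 that fell in both dock on the cap. The deubiquitinase Uchl5 had differences of -0.67 (adjusted p = 9.77e-05) in PHD3-/- and -0.79 (adjusted p = 2.23e-05) in wild-type cells, the deubiquitinase Usp14 of -0.31 (adjusted p = 0.0203) and -0.40 (adjusted p = 0.00455), and the ubiquitin receptor Adrm1 of -0.33 (adjusted p = 0.0274) and -0.40 (adjusted p = 0.0109). Nfe2l1 read -0.99, -1.33 and -1.32 at oxygen 1 against -0.72, -0.80 and -0.85 in PHD3-/- controls, and -1.01, -0.93 and -1.26 against -0.58, -0.92 and -0.95 in wild type. Every PHD3-/- oxygen 1 sample lay below every control and Nfe2l1 fell there (-0.43, adjusted p = 0.0284), while the wild-type samples overlapped (-0.25, adjusted p = 0.19). The core maturation factor Pomp differed by -0.07 (adjusted p = 0.677) and -0.02 (adjusted p = 0.912), and the small lid subunit Sem1 by 0.09 (adjusted p = 0.49) and 0.15 (adjusted p = 0.232). When starved, Txnl1, a thioredoxin-like protein of the cap, fell, with differences of -0.55 (adjusted p = 0.0198) and -0.49 (adjusted p = 0.0375), and Zfand2a, an arsenite-inducible proteasome-binding protein, rose by 0.50 (adjusted p = 0.0109) and 0.45 (adjusted p = 0.0213), while Txnl1 rose at oxygen 1 in wild type (0.39, adjusted p = 0.049).

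Of the 3 immunoproteasome subunits, Psmb10, which replaces Psmb7, read 4.90, 4.84 and 4.63 at oxygen 1 against 5.21, 5.45 and 5.37 in PHD3-/- controls, and 4.84, 4.83 and 4.95 against 5.30, 5.26 and 5.39 in wild type. It fell in both genotypes, with differences of -0.56 (adjusted p = 0.00037) and -0.44 (adjusted p = 0.00234). Psmb8, which replaces Psmb5, differed by -0.10 (adjusted p = 0.666) and -0.14 (adjusted p = 0.543), and Psmb9, which replaces Psmb6, by -0.29 (adjusted p = 0.2) and 0.02 (adjusted p = 0.941), and none of the 3 passed on starvation. Of 12 ubiquitin and shuttle factors 3 rose and 3 fell at oxygen 1 in PHD3-/- cells and 1 rose and 1 fell in wild type, and none passed on starvation. Ubqln1, a shuttle receptor, rose by 0.64 (adjusted p = 0.00779) and 0.65 (adjusted p = 0.00789). Uba6, a ubiquitin-activating enzyme, differed by 0.71 (adjusted p = 0.00994) and 0.46 (adjusted p = 0.0796). Of 12 NRF2 targets, Nfe2l2 itself included, 5 rose and 2 fell at oxygen 1 in PHD3-/- cells and 4 rose and 3 fell in wild type. Nfe2l2, the gene of NRF2, rose by 0.43 (adjusted p = 0.0123) and 0.42 (adjusted p = 0.0278), Hmox1, heme oxygenase, by 0.84 (adjusted p = 3.12e-05) and 0.80 (adjusted p = 5.94e-05), and Gsr, glutathione reductase, by 0.66 (adjusted p = 0.00242) and 0.51 (adjusted p = 0.0125), whereas Txnrd1, thioredoxin reductase, fell, with differences of -0.37 (adjusted p = 0.0214) and -0.57 (adjusted p = 0.00155). On starvation 2 rose and 2 fell in PHD3-/- cells and 1 rose and 2 fell in wild type, with Nqo1, a quinone reductase, rising by 1.18 (adjusted p = 0.00366) and 1.00 (adjusted p = 0.0119). No gene of these 4 lists passed the threshold between genotypes.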

How the data were processed

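Total RNA of 18 samples, 3 in each of 6 groups, was measured on 1-colour Agilent arrays with Cy3, per the labels' protocols. The deposited scanner files hold the authors' spot intensity values, processed by Feature Extraction 10.7.3.1 per the file headers. The deposited value table holds the authors' log2 values, used as an alternative only: each column has a median of 5.599, so that its centring hides absolute level. The submitters' processing notes name limma, and other steps are not given in the sources used here. Groups came from the labels. The members, lists and tests were chosen with earlier results of these data known.

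Here log2 of the processed signal minus each array's 75th percentile was used. Control and outlier-flagged spots were left out and spots of a probe averaged. The 2 samples on 2 arrays each were averaged to 1 value. A probe was tested if well above background in at least 3 samples, with at least 2 values per group, and the brightest probe stood for its gene. Of 39429 probes 66.1% had a RefSeq symbol by accession. One limma 3.58.1 model (R 4.3.3) with 6 group means was fitted over 20813 genes, with Benjamini-Hochberg adjustment and a threshold of 0.05, and was tested on simulated data with 200 changed genes. The number of arrays limits the precision.

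Values in every sample are given for the catalytic subunits, up to 5 rises and 5 falls of greatest size in each stress, the 3 largest changes of oxygen 1 against starved cells, and the 2 genes nearest the threshold where none passed. Lists of partners, immunoproteasome, ubiquitin and NRF2 genes and of other-cell markers are given by counts. The values of 1 listed gene are not reported here. The background correction planned on the mean signal was run on the median signal, because the mean is not among the columns used. Alternatives changed background, scaling, probe choice, filter, slide, replicate block and samples. Same-numbered samples deviated together with a median correlation of 0.05 (-0.33 to 0.478), over 0.1 in 15 of 45 pairs, so numbers were not taken to pair samples.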

Additional observations from a re-analysis of the deposited data

How the results depend on the processing

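Of 108 recomputed counts of members past the threshold in the comparisons of oxygen 1, starved and control cells, 78 stayed within 1.5 times the reported count and 30 did not. The counts between genotypes and of the differences in change were 0 in all 131 recomputations. No named gene past the threshold changed sign in the alternative settings, none of which used the dimmer probe of a gene alone. The dimmer Psma4 probe gave -0.16 at oxygen 1 in wild type, where the brighter rose. Psmd9 was among the members lower at oxygen 1 than in starved cells, at -0.50 in PHD3-/- and -0.40 in wild type. Its dimmer probe gave 0.07 and 0.18. In PHD3-/- cells the count of members past the threshold at oxygen 1 (11) was 5 with normexp background on the median signal, 18 under quantile normalization, 17 under median scaling (0 higher, 17 lower, against 2 and 9), 18 with the authors' values, and 2 when only the groups compared were fitted; leaving out 1 sample gave 7 to 12. In wild type (12) it was 5 with normexp, 22 under median scaling (0 higher, 22 lower, against 2 and 10), 5 with the slide as a block and only the first array of each sample, and 6 with only the groups compared. Leaving out 1 sample gave 8 to 13. With only the groups compared, 4.35% of members passed in PHD3-/- cells and 13% in wild type, against 32.9% and 32.3% of all genes. With the slide as a block the wild-type share was 10.9%, against 33.3% of all genes. For oxygen 1 against starved cells, normexp gave 6 in PHD3-/- (11) and 2 in wild type (15), and only the groups compared gave 6 and 4. Leaving out 1 sample gave 9 to 11 and 7 to 16. The member shares under normexp were 13% and 4.35%, against 18.1% and 19.2% of all genes. With only the groups compared they were 13% and 8.7%, against 33.1% and 27.8%. For starvation in PHD3-/- (1) the mean over probes gave 2, as did leaving out 3 samples together (PHD3-/- control 3, wild-type control 1 and starved wild-type sample 3). In wild type (2) normexp gave 0, no filter on dim probes 1, leaving out those 3 samples 1, and only the groups compared 0. Leaving out 1 sample gave 0 to 1. The wild-type shares of all genes were 5.41% with normexp, 6.27% with no filter and 9.46% with only the groups compared. The replicate block gave 1 for starvation in wild type, 12 at oxygen 1 in PHD3-/- and 13 in wild type. The cause of these moves was not tested. The median difference over all genes at oxygen 1 was 0.03 in both genotypes, -0.04 in PHD3-/- and -0.05 in wild type under quantile normalization, -0.08 and -0.12 under median scaling and 0.05 and 0.08 under normexp, and the member medians were below 0 under each of these.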
